A study of Mus musculus with 2 samples.

Results

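Excitation-contraction coupling genes encode the proteins that turn an action potential of the muscle fibre into a rise of calcium. In this report they are 10 genes, Cacna1s, Ryr1, Ryr2, Trdn, Casq1, Casq2, Jph1, Jph2, Atp2a1 and Atp2a2. They were chosen by symbol, and the table of gene activity holds 12 RefSeq entries of them among 24165 entries of 20128 gene symbols. The measurements were made by global run-on sequencing (GRO-seq), in which engaged RNA polymerase II in isolated nuclei extends its transcript with a tagged nucleotide, so that RNA in the course of synthesis can be isolated and sequenced. The cells were C2C12 myoblasts, an established mouse line that proliferates in serum and can fuse and differentiate into muscle fibres. There was 1 group of 2 replicate libraries, from untreated cells of 80% confluency, with 4 plates of 10 cm for each isolation of nuclei. Gene activity is the density of sense-strand reads along the gene body, from 1 kb downstream of the transcription start site (TSS) to the transcript end. Its unit is reads per kilobase mappable per 1e6 reads (RPKmM), and which reads form the scaling total is not stated. The authors pooled both libraries before they computed gene activity. They wrote Inactive in place of a number for entries whose density did not pass a Poisson test against gene deserts at a false discovery rate of 0.01.

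In skeletal muscle, depolarization of the T-tubule is sensed by the L-type calcium channel Cav1.1, which opens ryanodine receptors in the facing membrane of the sarcoplasmic reticulum. Released calcium starts contraction, and SERCA pumps return it to the reticulum, where calsequestrin binds it. Several of these proteins have a form typical of skeletal muscle and another typical of heart, and the machinery is assembled mainly when myoblasts differentiate, so its genes are usually studied in fibres and not in dividing cells.

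Of the 10 genes, 9 were marked active in C2C12 myoblasts, and the inactive one was Ryr2, the ryanodine receptor typical of heart. Of all gene symbols, 68.7% had an active entry, so being active was the common state in these cells. Atp2a2, the SERCA pump that most cell types use, had the highest activity of the 10, at 4.84 RPKmM. Trdn, the gene of triadin, had the lowest value, at 0.03 RPKmM. By entry, 11 of 12 were active, beside 70.2% of all entries. Each value is a single number from pooled libraries without a measure of replicate spread, so no test was made and every fold below lacks a replicate check. In such a culture, fewer cells that transcribe a gene and fewer polymerases per cell cannot be told apart.

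The label of the cells was set against marker genes. All 5 myoblast markers were active, with Des (desmin) at 72.45 RPKmM, Cdh15 (M-cadherin) at 8.08, Myf5 at 5.03, Myod1 at 2.39 and Msc at 0.82. Msc lay below the median of active symbols, 0.87 RPKmM. Of all gene symbols, 68.7% had an active entry, so counts of active markers alone say little about the label. Of 8 listed markers of neurons, hepatocytes, endothelium and blood, 5 were inactive and the others did not exceed 0.11 RPKmM. Of the coupling genes marked active, Casq1 at 0.09 RPKmM and Trdn at 0.03 also lay below that value. All 6 listed genes of differentiating muscle were active as well, from 0.2 RPKmM for Ckm, the muscle creatine kinase, to 6.85 for Acta1, the skeletal actin. Among these, the differentiation factor Myog had 2.39 RPKmM, equal to Myod1 at the printed precision. Of the cardiomyocyte markers, Nkx2-5 was inactive, Myh6 had 0.03 RPKmM and Tnnt2, which embryonic skeletal muscle also uses, had 2.91. Genes of differentiating muscle were thus transcribed in the same culture as the coupling genes, and their part in the activity of the coupling genes was not tested.

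Promoters of 5 members are shown first, because they include both members of 2 pairs of related genes that differed in activity, and a pump gene. They are the 250 bases before the RefSeq TSS, taken from RefSeq (GRCm38.p6) and found exactly once in mm9, where the positions are given. Each is read from 5′ to 3′ in the direction of transcription. Capitals mark the E-box CANNTG, which basic helix-loop-helix factors such as MyoD bind.
Ryr1, 1.1 RPKmM, chr7:29910171-29910420, minus strand: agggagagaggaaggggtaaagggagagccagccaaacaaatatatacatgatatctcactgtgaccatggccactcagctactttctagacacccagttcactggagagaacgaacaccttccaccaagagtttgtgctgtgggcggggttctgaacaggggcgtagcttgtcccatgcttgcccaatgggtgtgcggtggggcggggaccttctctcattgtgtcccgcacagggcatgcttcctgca
Ryr2, Inactive, chr13:12199213-12199462, minus strand: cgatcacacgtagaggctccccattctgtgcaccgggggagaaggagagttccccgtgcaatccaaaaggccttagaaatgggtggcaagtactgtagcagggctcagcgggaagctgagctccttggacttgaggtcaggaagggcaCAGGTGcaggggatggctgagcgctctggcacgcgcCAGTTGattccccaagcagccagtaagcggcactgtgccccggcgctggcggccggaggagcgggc
Casq1, 0.09 RPKmM, chr1:174150027-174150276, minus strand: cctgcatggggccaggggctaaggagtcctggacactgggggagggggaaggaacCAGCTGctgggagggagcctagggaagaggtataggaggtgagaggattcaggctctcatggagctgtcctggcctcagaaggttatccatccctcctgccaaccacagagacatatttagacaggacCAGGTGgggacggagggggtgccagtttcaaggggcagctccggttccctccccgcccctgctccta
Casq2, 0.56 RPKmM, chr3:101890088-101890337, plus strand: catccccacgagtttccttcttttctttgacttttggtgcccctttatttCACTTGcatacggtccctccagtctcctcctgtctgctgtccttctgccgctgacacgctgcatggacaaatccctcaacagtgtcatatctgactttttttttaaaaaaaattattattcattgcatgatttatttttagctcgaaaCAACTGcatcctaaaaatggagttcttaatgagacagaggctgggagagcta
Atp2a1, 1.31 RPKmM, chr7:133606588-133606837, minus strand: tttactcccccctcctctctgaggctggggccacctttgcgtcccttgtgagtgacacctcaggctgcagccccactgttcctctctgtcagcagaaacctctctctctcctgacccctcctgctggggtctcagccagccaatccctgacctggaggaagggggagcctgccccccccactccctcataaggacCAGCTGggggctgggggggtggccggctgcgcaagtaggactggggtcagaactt

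**Figure D1:**
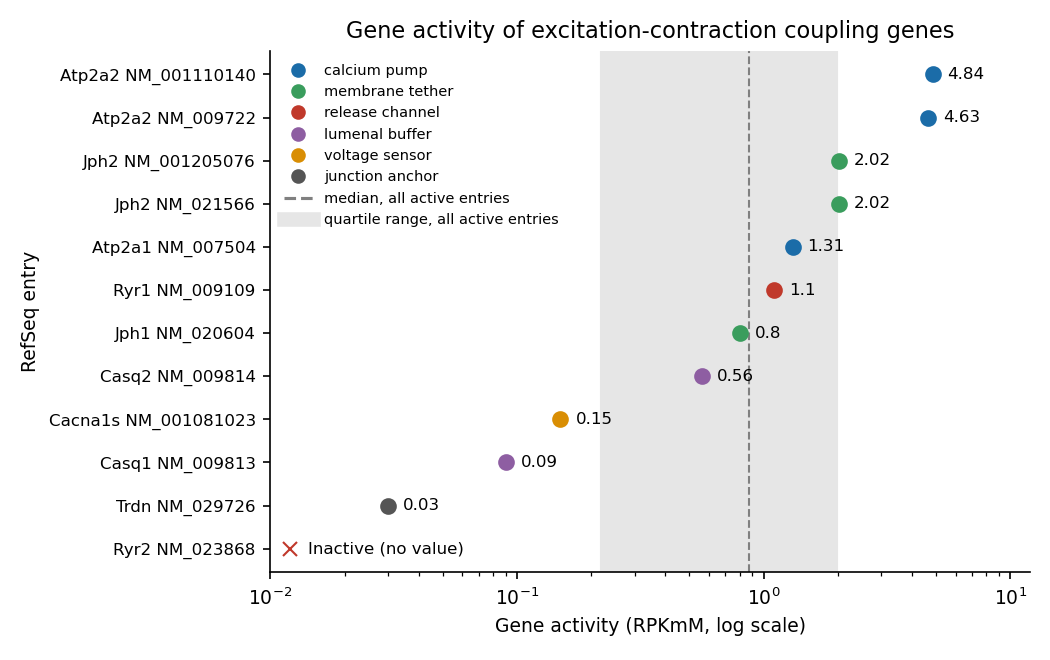
Gene activity in RPKmM on a log axis for each RefSeq entry of the 10 genes, one point per entry and coloured by role, from the pooled libraries. The dashed line is the median of all active entries (0.87) and the grey band their quartile range (0.22 to 1.99). The entries of Atp2a2 and Jph2 lie at or above the upper quartile, Cacna1s, Casq1 and Trdn lie below the lower quartile, and Ryr2 has no value.

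The calcium pumps were the most active role. The SERCA pumps are ATPases that carry calcium from the cytosol into the reticulum. Atp2a2 encodes SERCA2, used by heart and slow muscle and, in another splice form, by most other cells. Its 2 entries had 4.84 RPKmM (NM_001110140) and 4.63 (NM_009722), a difference of 0.21, or 1.05-fold. Entries of 1 gene can count the same reads, so they are not taken as separate measurements. Atp2a2 lay above 92.1% of active entries and at 5.56 times their median of 0.87 RPKmM. Atp2a1 encodes SERCA1, the pump of fast skeletal fibres, and its single entry had 1.31 RPKmM, above 62.1% of active entries. Within this pair the ubiquitous pump was 3.69-fold above the fibre pump. The rounding of the listed values alone allows 3.68- to 3.71-fold.

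The membrane tethers came next. Junctophilins span the gap between the T-tubule and the reticulum, Jph1 in skeletal muscle and Jph2 in both heart and skeletal muscle. Both entries of Jph2, NM_001205076 and NM_021566, were listed at 2.02 RPKmM, and they lay above 75.4% of active entries. Jph1 had 0.8 RPKmM, slightly below the median of active entries, and above 47.8% of them. Jph2 was therefore 2.52-fold above Jph1, with 2.5- to 2.55-fold allowed by rounding.

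Of the release channels, only one had a value. Ryr1, the ryanodine receptor of skeletal muscle, had 1.1 RPKmM and lay above 57.0% of active entries. Ryr2 was marked Inactive, so its density is known only as not having passed the authors' test against gene deserts, and no fold against Ryr1 can be given. Beside the promoters shown above, Ryr1 has no E-box in the 250 bases and Ryr2 has 2, CAGGTG and CAGTTG, whose first bases lie 102 and 66 bases upstream of the TSS.

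The genes of the lumenal proteins were lower. Calsequestrins bind calcium with high capacity inside the reticulum, Casq1 mainly in fast fibres and Casq2 in heart and slow fibres. Casq2 had 0.56 RPKmM, above 39.0% of active entries, and Casq1 had 0.09, above 18.2%. The form typical of heart was thus 6.22-fold above the fast form, and rounding allows 5.84- to 6.65-fold. This ratio rests on the low value of Casq1. The log2 ratio of Casq1 to Casq2 was -2.51 with a pseudocount of 0.01 RPKmM and -1.8 with 0.1, where that of Atp2a2 to Atp2a1 was 1.81, so at that pseudocount the difference within the calsequestrin pair was about as large as that within the pump pair, and at 0.01 it was larger. Triadin, encoded by Trdn, anchors calsequestrin to the ryanodine receptor. At 0.03 RPKmM, Trdn lay above 11.5% of active entries. Rounding leaves Trdn between 0.025 and 0.035 RPKmM, so this value is known to 1 digit only.

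Cacna1s encodes the pore-forming subunit of Cav1.1, the voltage sensor that gives the signal for release. It had 0.15 RPKmM and lay above 21.8% of active entries. The sensor was thus listed at a lower density than Ryr1, the channel it opens, at 1.1 RPKmM.

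Ordered by their highest entry, the genes ran Atp2a2, Jph2, Atp2a1, Ryr1, Jph1, Casq2, Cacna1s, Casq1, Trdn and Ryr2. Ryr2 is set last because it has no value. Every step among the 9 genes with a value exceeded the rounding of the values, and whether any exceeds the spread between libraries is unknown. The smallest step as a ratio was from Atp2a1 to Ryr1, 1.19-fold, and the steps from Casq2 to Cacna1s, 3.73-fold, and from Casq1 to Trdn, 3-fold, were wide, though the latter rests on a value of 1 digit. Thus 6 genes lay between 0.56 and 4.84 RPKmM, and 3 active genes lay at 0.15 or below. The span from Trdn to Atp2a2 was 161-fold, and rounding allows 138- to 194-fold, mostly through the value of Trdn. Of the 9 active genes, 4 lay above the median of active gene symbols, also 0.87 RPKmM, beside 49.8% of all active symbols. Of the 10 genes, 4 had at least 1 RPKmM, and 31.6% of all symbols did. Below 0.1 RPKmM were 2 of the 9 active genes, beside 18.9% of active symbols, and 7 of the 10 genes had at least 0.1, as 55.7% of all symbols did. By entry, 6 of the 11 active ones lay above the median (49.7% of all active entries), and 2 of the 11 lay below 0.1 (18.5% of all). A single gene moves each of these shares by about 10 percentage points.

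In several families the members differ in whether they are used by muscle or by other tissues, and the relatives were read from a list of further calcium genes. Among the SERCA pumps, Atp2a3, the form of blood and epithelial cells, had 0.01 RPKmM, so that all 3 pump genes were active and spanned from 0.01 to 4.84. Among ryanodine receptors, the third gene Ryr3, found in brain and in developing muscle, had entries at 0.21 and 0.15 RPKmM and lay below Ryr1. The receptors for inositol trisphosphate, which release calcium in most cell types, were all active. Itpr3 had 1.9 RPKmM, above Ryr1, whereas Itpr2 at 0.62 and Itpr1 at 0.37 were below it. Among the L-type channels, Cacna1s was the only active gene of the 3 examined, as Cacna1c, typical of heart and smooth muscle, and Cacna1d, typical of neurons and endocrine cells, were inactive in all their entries (3 and 2). Of the junctophilins, Jph4 had 0.02 RPKmM and Jph3 was inactive, and both are known mainly from brain.

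**Figure D2:**
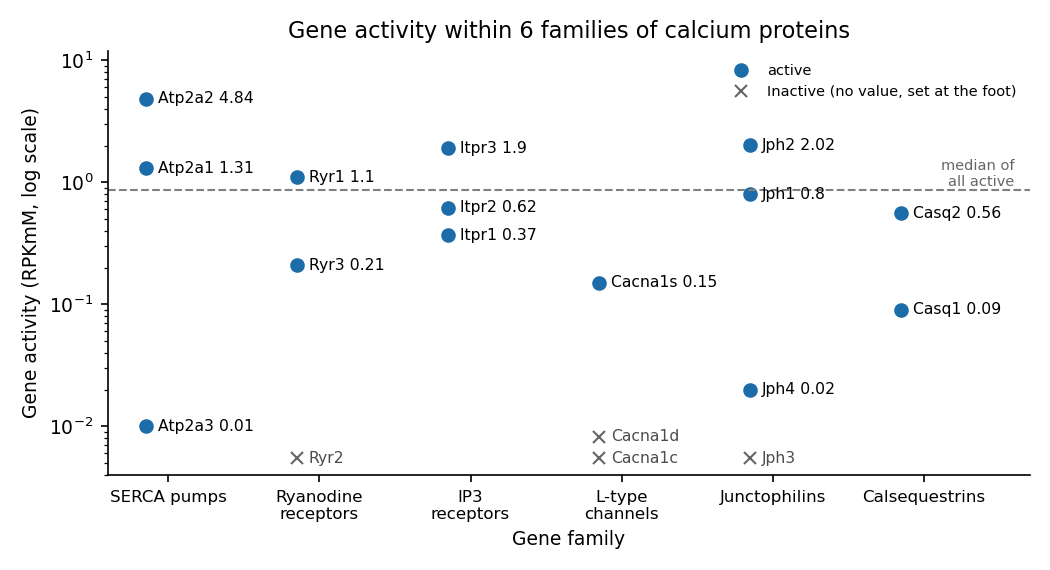
Gene activity in RPKmM on a log axis for 6 families of calcium proteins, one point per gene by its highest entry. Crosses at the foot stand for inactive genes, which have no value, and the dashed line is the median of all active entries (0.87). Atp2a2 (4.84) is the highest gene shown, and each family with an inactive gene also has an active one.

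Activity is a density, already divided by length, so a long gene takes more reads than a short one at the same value. Positions are those of GENCODE vM1 on mm9. The 10 genes had a median length of 64.4 kb, against 21.1 kb for all symbols with an annotated length, and 8 of the 10 were longer than that median. Trdn lies on the plus strand of chromosome 10 from 32803289 to 33196515 and is 393 kb long with up to 38 exons. Ryr2 (chromosome 13, minus strand, 11645370 to 12199212) spans 554 kb with up to 105 exons. Ryr1 (chromosome 7, minus strand, 29788359 to 29910170) has up to 106 exons, about as many as Ryr2, in a far shorter span of 122 kb. Casq1 (chromosome 1, minus strand, 174140025 to 174150026) is the shortest at 10 kb. Introns make up from 79.8% (Atp2a1) to 98.8% (Trdn) of these genes, so most of the measured sequence is intronic.

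Multiplied by the length of the gene body, the densities give the reads that each gene takes per 1e6 of the scaling total. This holds if every base is mappable and the RefSeq entry spans the same region. By this estimate Atp2a2 (48.7 kb, chromosome 5, 122903531 to 122952183, minus strand) took 231 reads per 1e6. Ryr1 took 133 and Jph2 (61.8 kb, chromosome 2, 163161978 to 163223729, minus strand) took 123, so these differ less in reads than in density. Jph1 (100 kb, chromosome 1, 16987545 to 17087879, minus strand) took 79.5 reads per 1e6, and Casq2 (60.1 kb, chromosome 3, 101890338 to 101950437, plus strand) took 33.1. Atp2a1 is short (17.3 kb, chromosome 7, 133589372 to 133606622, minus strand) and took 21.3, fewer than Casq2 although its density was higher. Trdn took 11.8 reads per 1e6 (9.81 to 13.7 within rounding), above Cacna1s (67.1 kb, chromosome 1, 137949327 to 138016399, plus strand) with 9.91, which lies inside that range, and above Casq1 with 0.81. The lowest density and the fewest reads thus belong to different genes, Trdn and Casq1.

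The state of the longest genes was read beside others of their length. Among 307 symbols of at least 400 kb, the class of Ryr2, 59.0% were active, and 126 were inactive. Among 1958 symbols from 100 kb to below 400 kb, which include Trdn, Ryr1 and Jph1, 76.5% were active. Of the active ones in that class, 14.3% had 0.03 RPKmM or less, the level of Trdn, while their median was 0.795. Trdn, at 393 kb, lies just under the edge of the next class, in which 29.3% of active symbols had 0.03 RPKmM or less and the median was 0.22. From 25 kb to below 100 kb, 78.6% were active, and below 25 kb 66.0% were.

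**Figure D3:**
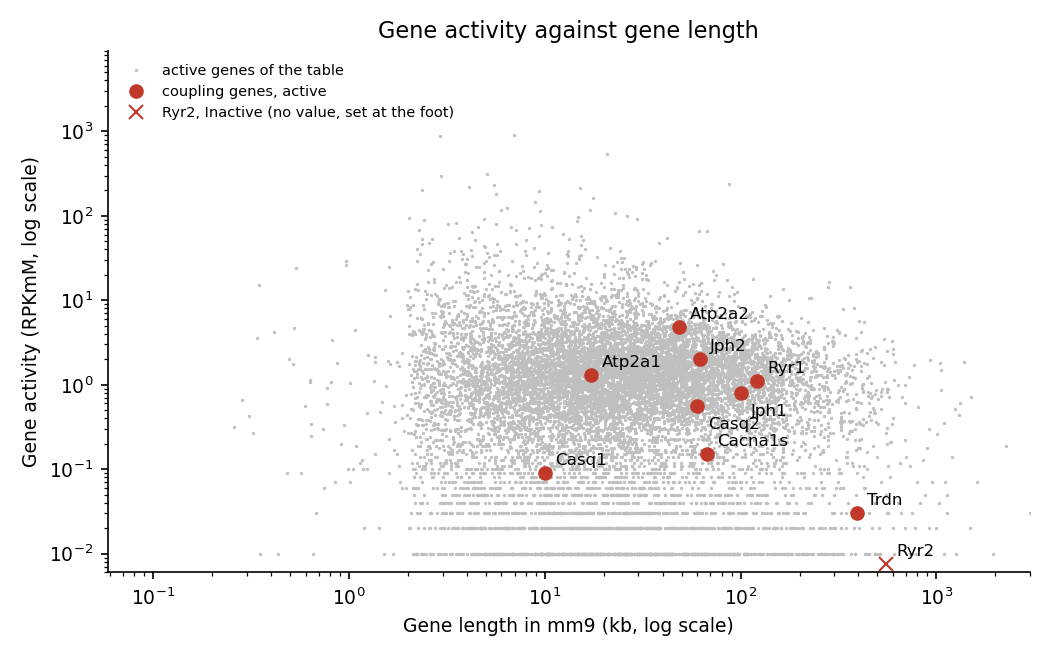
Gene activity in RPKmM against gene length in kb, both on log axes. Grey points are active genes by their highest entry (108 listed at 0 are not drawn), red points are the 9 active coupling genes, and the cross at the foot is Ryr2, which has no value. Trdn (393 kb, 0.03) and Ryr2 (554 kb) are the longest of the 10 genes, and Trdn has the lowest of the 9 values.

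Promoters were available for 7 of the 10 genes, with 2 starts for Jph2, and those of Trdn, Jph1 and Atp2a2 were not used here. In the 250 bases before the TSS, CANNTG was present in 6 of the 7 genes, all but Ryr1, and in 62.2% of 18750 promoters of listed genes. The form CAGCTG, which MyoD and its relatives favour and which is contained in CANNTG, was present in 4 of the 7 genes. It was found in 13.2% of all promoters. In Atp2a1 its first base lies 55 bases upstream of the TSS, in Cacna1s 123 and in Casq1 195, and in Jph2 9 or 29 bases upstream of its 2 starts. Among these 4 genes the activity ran from 0.09 RPKmM in Casq1 to 2.02 in Jph2, so the motif was present over a wide range of activity. The MEF2 site, bound by the MEF2 factors of muscle, occurred only in Casq2 among the 7, where its first base lies 69 bases upstream and the same bases match on both strands. Of all promoters, 1.97% hold it. The motif TATAAA, searched on both strands, was in none of the 7 and in 9.08% of all promoters. The motif GGGCGG, known from GC-rich promoters and searched on both strands, was in 4 of them, Ryr1, Jph2, Casq1 and Cacna1s, and in 46.6% of all. A match of letters is a description and not a binding site.

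CpG dinucleotides were counted in the promoters of the same 7 genes, which leave out Atp2a2, the most active one. Per 250 bases there were 3 in Atp2a1 and Casq1, 5 in Casq2, 6 in Ryr1, 5 or 6 in Jph2 and 9 in Cacna1s. Ryr2, the inactive gene, held the most, 14. The median was 15 among promoters of active genes, 4 among those of inactive genes and 11 over all, so 6 of the 7 genes lay below the median of all promoters and Ryr2 above it. The content of G and C ran from 41.6% in Casq2 to 64.0% in Atp2a1, with a median of 59.6% among active promoters.

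The genes around the members were examined next. Of the 20 nearest listed genes on either side, 12 were active (60.0%, beside 68.7% of all symbols). Casq1 stood between a more active and an inactive gene of the same strand, as Pea15a, 3.09 kb downstream, had 4.5 RPKmM, and Atp1a4, 3.62 kb upstream, was inactive. Atp2a1 lies 3.89 kb downstream of Sh2b1, which is on the same strand and had 1.85 RPKmM, and it overlaps Rabep2 (0.7 RPKmM), on the opposite strand, over 3388 bp. Ryr1 and Map4k1, which face each other on opposite strands, are 61 bp apart, and Map4k1 had 0.06 RPKmM while Ryr1 had 1.1. Upstream of Ryr1, the opposite-strand gene Rasgrp4 was inactive at 9.7 kb, and the span of Ryr1 also holds the annotated Gm16799, on the opposite strand, and Mir1963, of 59 bp on its own strand, whose reads are counted in Ryr1. Both neighbours of Jph2, Gdap1l1 (40.5 kb upstream) and Tox2 (12.1 kb downstream), were inactive, and the neighbours of Atp2a2, Ift81 and Anapc7, had 0.69 and 1.55. The neighbours of Cacna1s were Tmem9, with 1 RPKmM at 17.7 kb upstream, and Gm15850, with 0.19 at 6.36 kb downstream. Casq2 has the inactive Nhlh2 70.9 kb upstream and Vangl1, with 1.45 RPKmM, 10.2 kb downstream, and Jph1 has the inactive Gdap1 47.6 kb upstream and Ly96, with 0.44, 288 kb downstream.

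Listed genes were fewest around Trdn, with 4 within 500 kb, and 6 were listed around each of Ryr2, Casq2 and Jph1. The listed neighbours of Trdn were Nkain2, 681 kb upstream with 0.07 RPKmM, and Clvs2, 35.6 kb downstream and inactive. Ryr2 has Mtr 79.9 kb upstream, with 0.82 RPKmM, and Chrm3 1767 kb downstream, which is marked active but listed at 0. Of the 4 genes within 500 kb of Trdn, 1 was active, Zufsp at 2.62 RPKmM. Within 500 kb of Ryr2, all 6 listed genes were active, with a median of 0.525 RPKmM, so the inactive coupling gene lay among active ones. All 16 genes within 500 kb of Cacna1s were active too, and 14 of them were above it. Around Casq1, 13 of 24 were active and 11 of these were above it. None of the 17 active genes within 500 kb of Atp2a2 exceeded that gene. Over the 10 regions, 124 of 162 listed genes were active (76.5%, beside 68.7% of all symbols).

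**Figure D4:**
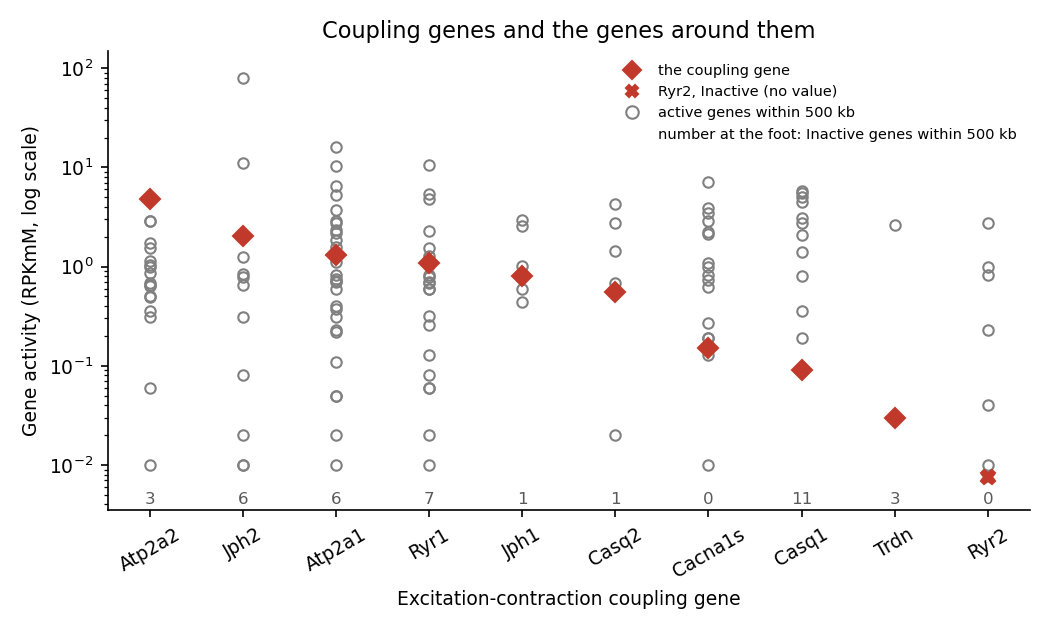
Gene activity in RPKmM on a log axis of each coupling gene (red diamonds, a red X for the inactive Ryr2) and of active genes within 500 kb (open circles), with the number of inactive genes in that region at the foot. The coupling genes are in order of activity. Atp2a2 lies above every gene around it, whereas Trdn has a single active gene in its region and Cacna1s and Casq1 lie low among theirs.

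A list of 51 further genes of calcium handling in muscle showed which partners of the coupling proteins were transcribed. Of these, 43 were active (84.3%, beside 68.7% of all gene symbols), with a median of 0.88 RPKmM among the active ones, against 0.87 for all active symbols. The inactive genes were Cacna1c, Cacna1d, Sypl2, Jph3, Pln, Sln, Pvalb and Slc8a3. With the members, 52 of 61 genes were active.

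Counts per role are of few genes and are given beside 68.7% of all gene symbols active. Among subunits and adaptors of the voltage sensor, 7 of 9 were active, from 0.03 RPKmM for Cacng6 and for Stac to 2.5 for Stac2. The subunits that join Cacna1s in the skeletal channel were above it, with Cacna2d1 at 2.35 RPKmM, Cacng1 at 1.74 and Cacnb1 at 0.91. Stac3, the adaptor that skeletal coupling requires, had 0.88. All 8 regulators of the release channel were active, from Fkbp1b at 0.26 RPKmM to S100a1 at 5.87. Fkbp1a, whose product binds Ryr1, had 3.51. These regulators serve many other proteins and cell types besides.

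Of 9 proteins of the junction and the reticulum membrane, 7 were active (all symbols 68.7%), from Jph4 at 0.02 RPKmM to Asph at 3.19. Asph, which also encodes junctin, the relative of triadin, is listed in 7 entries, from 1.22 to 3.19 RPKmM, and its other products include an enzyme of most cell types. Jsrp1, a partner of Cav1.1 and calsequestrin, had 1.65 and Hrc, a lumenal calcium binder, 0.51. All 5 genes of T-tubule formation were active, with Bin1 at 7.2 RPKmM, the highest, and Cav3, the muscle caveolin, at 0.04, the lowest.

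The regulators of the pumps differed from the pumps. Pln (phospholamban) and Sln (sarcolipin), small inhibitors of SERCA in heart and skeletal muscle, were both inactive, while Atp2a2 and Atp2a1 were active. All 5 genes of store-operated entry, which refills the reticulum from outside, were active (all symbols 68.7%), from Stim1 at 0.31 RPKmM to Stim2 at 5.53. Among buffers and extrusion, 4 of 6 were active, and Calr (calreticulin), the calcium buffer of the reticulum in non-muscle cells, had 311.5 RPKmM, the highest of the list. Calr was thus far above Casq1 and Casq2, at 0.09 and 0.56 RPKmM, and Pvalb (parvalbumin), the cytosolic buffer of fast fibres, was inactive. Slc8a1, a sodium-calcium exchanger, had 0.16, the lowest active value of this role. The channels of the fibre's membrane excitability, Scn4a and Clcn1, had 0.09 and 0.23.

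**Figure D5:**
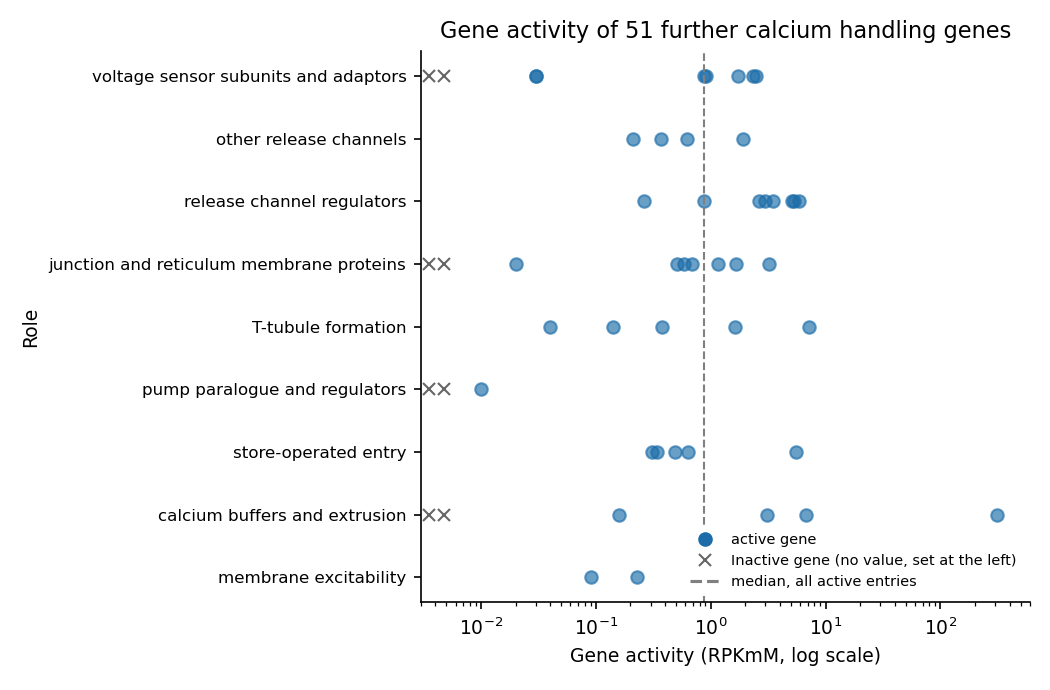
Gene activity in RPKmM on a log axis of 51 further calcium handling genes by role, one point per gene by its highest entry. Crosses at the left stand for inactive genes, which have no value, and the dashed line is the median of all active entries (0.87). Most regulators of the release channel lie right of the line, and the point farthest right is Calr (311.5).

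Lists of other muscle genes were set beside these as a description. Of 26 listed sarcomere genes, all were active, beside 68.7% of all gene symbols. Their median was 1.4 RPKmM, with a range from 0.01 for Myh2 to 54.86 for Tnnc1. Of 12 genes of the acetylcholine receptor and neuromuscular junction, 11 were active, beside the same 68.7%, with a median of 1.26 RPKmM. The inactive one was Chrne, the receptor subunit of adult fibres. The 9 active coupling genes had a median of 0.8 RPKmM, against 0.87 for all active symbols, and their 11 active entries had a median of 1.1, against 0.87 for all active entries, so the side of the background on which the coupling genes lay turned with the unit counted. No difference between these lists was tested.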

How the data were processed

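GRO-seq was performed on 2 replicate libraries of C2C12 myoblasts. The authors deposited 1 table of 24165 selected RefSeq entries. Each has an activity in RPKmM, an RPKM computed over mappable bases, or the word Inactive (7208 entries). The paper kept entries of at least 2 kb, on chromosomes 1 to 19 or X, that could be mapped in promoter and gene body. Per the submitters' processing notes, CASAVA 1.8 and Bowtie2 were used with mm9. The authors aligned again, after trimming, the reads that had not qualified, required a unique position, removed reads in repeats of rRNA and tRNA, pooled both replicates and called genes active by Poisson statistics against gene deserts at a false discovery rate of 0.01. Pooling removes the replicate spread, intronic repeats that cannot be mapped go uncounted, and values rounded to 2 decimals carry little precision when low. Depth is not in the table, rounding prevents recovery of whole reads, and no read total from elsewhere was used, so no counting intervals are given.

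The members and lists were chosen with earlier results of these data known. Named were all members, the further calcium genes by role (highest, lowest and inactive genes, and partners chosen after their values were seen), nearest neighbours and markers. The listed genes not in the table were Mymx, Nppa, Apoa1, Tnni2 and Tcap. Mymk is listed as Tmem8c. A gene was represented by its highest entry, ties in a rank were split evenly above and below, and rounding ranges add and subtract 0.005 RPKmM. Of 20128 symbols, 17578 matched GENCODE vM1 (mm9) by name, and 15199 matched a RefSeq promoter. Calculations were tested on simulated data. Alternatives were other entries, thresholds for active, gene length, chromosomes and pseudocounts. Python 3.11.15, numpy 2.4.6, pandas 2.3.3 and matplotlib 3.10.9 were used.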

Additional observations from a re-analysis of the deposited data

How the results depend on the processing

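The counts of active members (11 entries, 9 genes) and of active calcium genes (43) stayed within 1.5-fold under each alternative, the lowest being 9 entries, 7 genes and 35 further genes. The median of active member entries, 1.1 RPKmM, became 0.8 with the lowest or with the highest entry per symbol (the latter chosen after seeing the data) and 1.31 where active meant at least 0.1. That threshold placed Atp2a2 above 90.3% of active entries, and genes of at least 10 kb placed it above 93.0%. The log2 ratio of Atp2a2 to Atp2a1, 1.88 with a pseudocount of 0.01, was 1.81 with the lowest entry, 1.88 with a pseudocount of 0.001 and 1.81 with 0.1. That of Casq1 to Casq2, -2.51, was -2.62 with 0.001 and -1.8 with 0.1, and that of Jph1 to Jph2, -1.33, was -1.24 with 0.1. No ratio changed direction, but these alternatives could hardly have reversed one. A pseudocount added to both values keeps the direction, and the other alternatives left these values unchanged or nearly so, or dropped them. The directions were therefore not put to a test. Why the values above moved was not tested. No paired analysis was possible because the table holds 1 pooled value per entry, and for the same reason no replicate could be left out. A ratio of Ryr1 to Ryr2, one of Casq1 to Casq2 with active at 0.1 or more, and the longest entry per symbol gave no value or were not run, since Ryr2 and Casq1 then have no number and the lengths of RefSeq entries in mm9 were not used here.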
